A study of Mus musculus with 6 samples.

Results

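The lysophosphatidylserine genes examined here were the deleted receptor Gpr174, the other lysophosphatidylserine receptors P2ry10 and Gpr34, and the enzymes Pla1a, Abhd16a and Abhd12, which make or degrade the ligand. They were selected by name and function, with no rule on their values, although earlier results of these data were known, and are 6 of the 18089 genes in the table. RNA was sequenced from ischemic gastrocnemius muscle of 3 wild-type (WT) and 3 GPR174-knockout (Gpr174-/Y) mice, taken 7 days after hindlimb ischemia (HLI), a surgical block of the artery to the leg. All 6 mice were male C57BL/6 animals aged 8 to 10 weeks, and the WT mice were littermates of the mutants. The deletion is global, so that every cell type of the mutant lacks the receptor, and the sources used here do not state which part of the gene was removed. The 6 libraries held 18417111 to 19394504 counts each.

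Lysophosphatidylserine (LysoPS) is a lipid mediator made from phosphatidylserine by removal of a fatty acid chain. It acts on G protein-coupled receptors of the P2Y-like family that are found mainly on leukocytes, where GPR174 couples to Gs and raises cAMP and P2RY10 couples to G12/13. The amount of LysoPS in a tissue depends on lipases that release it and on lipases that break it down. In ischemic muscle these receptors can be carried by infiltrating lymphocytes, macrophages and mast cells, while the intracellular lipases are present in many cell types.

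The receptor genes Gpr174, P2ry10 and P2ry10b lie side by side on the X chromosome. Coordinates here and below are from the GENCODE M21 annotation of the GRCm38 assembly, another build than the one the counts were made on. P2ry10 (ENSMUSG00000050921.12) lies at chrX:107088492-107104974 on the plus strand, P2ry10b (ENSMUSG00000054293.10), a close copy of it that is not counted among the 6 genes, at chrX:107148927-107173661, and Gpr174 (ENSMUSG00000073008.11) at chrX:107255878-107296769, both also on the plus strand. The gap between P2ry10 and P2ry10b is 44.0 kb, that between P2ry10b and Gpr174 is 82.2 kb, and the 3 genes together span 208 kb. Gpr34 lies elsewhere on the X chromosome, at chrX:13632089-13640858 on the plus strand. The enzyme genes are autosomal, with Abhd16a at chr17:35089263-35102987 on the plus strand, Abhd12 at chr2:150832493-150904741 on the minus strand and Pla1a at chr16:38396117-38433145 on the minus strand.

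The coding sequences of P2ry10 and P2ry10b were identical at 80.7% of 982 aligned bases and shared an unbroken run of 160 identical bases. Gpr174 was identical to P2ry10 at 56.7% and to P2ry10b at 59.6% of the aligned coding bases, with a longest shared run of 17 bases in each case. The run shared by P2ry10 and P2ry10b is shown with 30 bases on each side, because a read that falls wholly inside it cannot be assigned to either gene. The exonic coding stretch of P2ry10 is at chrX:107102645-107102864 and that of P2ry10b at chrX:107171220-107171439, both on the plus strand, and capitals mark the 2 bases of 220 at which they differ.

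P2ry10: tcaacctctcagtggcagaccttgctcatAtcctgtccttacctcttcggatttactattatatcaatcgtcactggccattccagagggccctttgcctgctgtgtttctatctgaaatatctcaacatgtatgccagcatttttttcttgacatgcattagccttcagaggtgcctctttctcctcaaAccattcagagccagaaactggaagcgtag
P2ry10b: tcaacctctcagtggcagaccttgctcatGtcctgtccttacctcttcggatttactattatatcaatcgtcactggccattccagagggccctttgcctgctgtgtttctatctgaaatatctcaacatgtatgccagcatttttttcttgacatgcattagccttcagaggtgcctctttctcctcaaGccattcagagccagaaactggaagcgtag

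RefSeq promoter windows on GRCm38.p6, from 250 bases before to 50 after a start, were available for Abhd16a, P2ry10, P2ry10b and Gpr174. They were searched on both strands for the cAMP response element (TGACGTCA), since GPR174 signals through cAMP, for its short form (TGACGT), which every full element contains, and for the EGR1 motif in the forms GCGTGGGCG and GCGGGGGCG. Of the 7 windows, that of Abhd16a held the full element, 67 bases before the start, along with a separate short form, and the second window of P2ry10 held the short form. None of the 7 held the EGR1 motif. Over all 32851 promoter windows, 1.79% held the full element, 7.51% the short form and 3.47% the EGR1 motif, and a match of letters does not show that a factor binds. The Abhd16a window, at chr17:35089041-35089340 on the plus strand, is shown as the only one with the full element, and capitals mark the separate short form, read on the other strand, and then the full element.

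Abhd16a promoter: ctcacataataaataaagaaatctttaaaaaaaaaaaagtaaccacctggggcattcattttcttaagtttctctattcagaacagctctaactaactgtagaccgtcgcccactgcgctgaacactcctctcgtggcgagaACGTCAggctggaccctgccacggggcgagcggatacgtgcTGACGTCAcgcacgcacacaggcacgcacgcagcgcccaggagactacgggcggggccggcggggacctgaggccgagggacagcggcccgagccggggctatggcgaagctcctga

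Levels in TPM, the transcript unit scaled for both length and library size, set the enzymes far above the receptors. In WT muscle Abhd12 was highest at 73.2 ± 10.9 TPM (SD, n = 3), followed by Abhd16a at 55.6 ± 1.87 TPM, Pla1a at 10.7 ± 2.42 TPM, Gpr34 at 7.67 ± 1.04 TPM, P2ry10b at 1.78 ± 0.285 TPM, P2ry10 at 0.89 ± 0.122 TPM and Gpr174 at 0.107 ± 0.0551 TPM. The ranges of Pla1a and Gpr34 overlapped, and no other neighbours in this order did. In Gpr174-/Y muscle the order was the same except that Gpr34 (11.2 ± 1.03 TPM) stood above Pla1a (10.2 ± 1.78 TPM), again with overlapping ranges. Abhd12 reached 127 ± 8.98 TPM there and Abhd16a 55.2 ± 2.4 TPM.

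To ask how the lysophosphatidylserine system differed in muscle that lacked the receptor, the genotypes were tested gene by gene in edgeR (quasi-likelihood F-test), with libraries scaled by TMM, the trimmed mean of M values, and p-values adjusted over all genes. Abhd12, the lipase that degrades LysoPS, was higher in Gpr174-/Y muscle, and Abhd16a, a lipase that makes it, was lower, as was the deleted receptor. P2ry10, Gpr34 and Pla1a did not pass an adjusted p of 0.05. In all, 3 of the 6 genes were called, 1 higher and 2 lower. One of the lower genes is Gpr174, the deleted gene itself. Its call came from the fit without the filter, in which 43.9% of 18053 genes were called. Of all 14395 genes tested, 54.6% were called, 27% higher and 27.6% lower, so that being called is a common outcome in this comparison. Among the 5 of the 6 genes that passed the filter on low counts, 2 were called (40%). With replicates 1 and 3 of each group alone, edgeR called 0 of 14447 genes, with 5026 at an unadjusted p under 0.05.

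Gpr174 was at the edge of detection even in WT muscle. Its counts were 8, 2 and 5 in the WT libraries and 1, 0 and 0 in the Gpr174-/Y libraries, in all 15 against 1. The WT library with the fewest reads was still above every mutant library, although by only a single count, and the remaining count in a mutant was not traced to a part of the gene. With each mutant library set to a floor of 3 counts, the mean WT level was 2.12 times the mutant level. The floor was not applied to the WT libraries, of which replicate 2 had 2 counts. The value takes no account of the error of the WT counts and is not a strict lower bound. Low counts kept it out of the filtered test. With no filter, edgeR gave a log2 fold change of -3.76 ± 0.99 (SE) and an adjusted p of 0.0176. In that unfiltered test 43.9% of 18053 genes were called, 21.7% lower. The call was lost without Gpr174-/Y replicate 2 (adjusted p = 0.0658) or replicate 3 (adjusted p = 0.0641).

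P2ry10, a LysoPS receptor of lymphocytes, had 23, 22 and 28 counts in the WT and 22, 22 and 19 in the Gpr174-/Y libraries. In CPM, counts scaled to the size of the library and here also by TMM, these were 1.43, 1.31 and 1.57 CPM against 1.05, 1.04 and 0.884 CPM. The scaled groups did not overlap, as held for 65.6% of all genes tested, whereas the unscaled counts touched at 22. The log2 fold change was -0.54 ± 0.17 (SE), 95% confidence interval -0.94 to -0.14, with an adjusted p of 0.0521. With libraries scaled to their total counts the log2 fold change was -0.27 with an adjusted p of 0.329. In TPM the libraries had 0.83, 0.81 and 1.03 against 0.82, 0.84 and 0.77, and the groups overlapped. At about 20 counts per library, the difference passed the threshold in edgeR under neither scaling, and its size depended on the scaling.

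P2ry10b, which lies between P2ry10 and Gpr174, gave the opposite sign. It had 44, 52 and 61 counts in the WT and 98, 88 and 86 in the Gpr174-/Y libraries, or 2.74, 3.09 and 3.43 CPM against 4.68, 4.14 and 4.0 CPM. All mutant libraries were above all WT libraries, and the log2 fold change was 0.47 ± 0.13 (SE) with an adjusted p of 0.0201. This call was lost without WT replicate 2 (adjusted p = 0.0676), Gpr174-/Y replicate 1 (adjusted p = 0.0636) or Gpr174-/Y replicate 2 (adjusted p = 0.0602), and with DESeq2's Wald test (adjusted p = 0.0766).

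The difference between the copies was read from the ratio of P2ry10b to P2ry10 counts within a library, which needs no scaling between libraries. The ratio was 1.91, 2.36 and 2.18 in WT and 4.45, 4.0 and 4.53 in Gpr174-/Y muscle, 2.01 times higher in the mutants without overlap. The two-sided exact permutation p was 0.1, the smallest that 3 against 3 libraries allow. P2ry10b was already higher and P2ry10 lower in CPM without overlap, so the ratio had to separate. It restates those differences and is no further test of them. Since the copies share the identical run shown above, how the counting model divided reads between them bears on this ratio, and its part was not tested.

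Gpr34, the LysoPS receptor best known from macrophages, microglia and mast cells, had 122, 152 and 157 counts in the WT and 204, 189 and 217 in the Gpr174-/Y libraries. After TMM scaling these were 7.59, 9.05 and 8.82 CPM against 9.75, 8.90 and 10.1 CPM, and the groups overlapped. The log2 fold change was 0.17 ± 0.10 (SE), 95% confidence interval -0.06 to 0.40, with an adjusted p of 0.17. With libraries scaled to their total counts it was 0.45 with an adjusted p of 0.0129, so whether Gpr34 was called depended on the scaling. That scaling moved the median log2 fold change of all genes tested from 0 to 0.28, and the called genes from 27% higher and 27.6% lower to 50.7% higher and 14% lower.

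**Figure D1:**
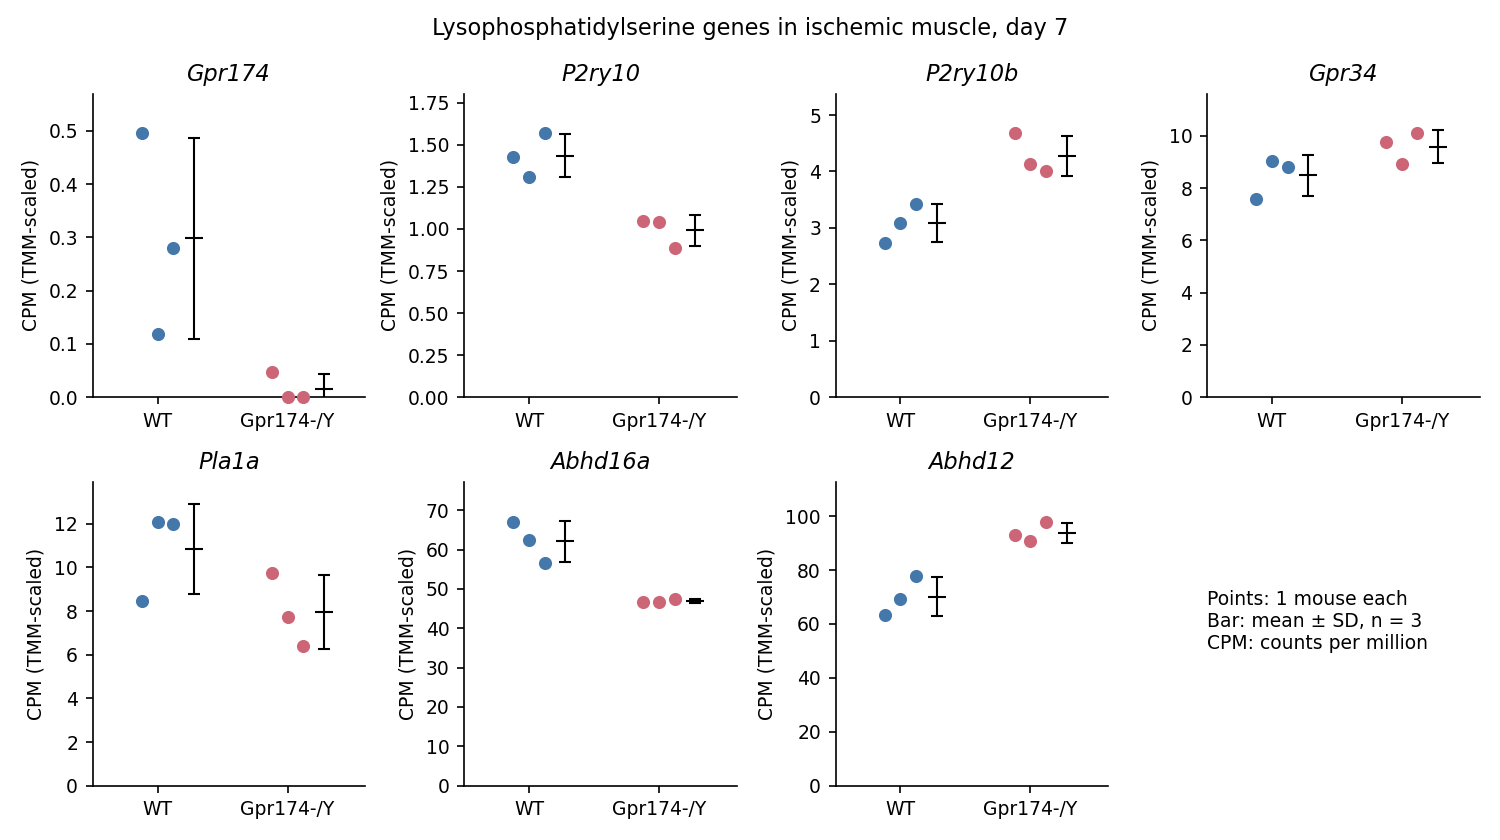
TMM-scaled counts (CPM, linear axes from 0) of the 6 lysophosphatidylserine genes and P2ry10b in each library, with 1 point per mouse and the mean ± SD of 3 mice beside them. Abhd12 and P2ry10b are higher and Abhd16a and P2ry10 lower in Gpr174-/Y muscle without overlap, Gpr34 and Pla1a overlap, and Gpr174 is near 0 in the mutants.

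Pla1a encodes a secreted phospholipase A1 that acts on phosphatidylserine and releases LysoPS outside the cell. Its counts were 136, 203 and 213 in the WT and 204, 164 and 138 in the Gpr174-/Y libraries, and its scaled levels 8.46, 12.1 and 12 CPM against 9.75, 7.72 and 6.42 CPM. WT replicate 1 lay below Gpr174-/Y replicate 1, so the groups overlapped. The log2 fold change was -0.45 ± 0.19 (SE), 95% confidence interval -0.91 to 0.01, with an adjusted p of 0.0893. Pla1a passed the threshold without WT replicate 1 (adjusted p = 0.0219) or without Gpr174-/Y replicate 1 (adjusted p = 0.0469). Under another unit, log2(FPKM + 0.1), its log2 fold change was -0.17 and its adjusted p reached 0.47.

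Abhd16a, the intracellular lipase that forms LysoPS from phosphatidylserine, had 1079, 1050 and 1008 counts in the WT and 975, 989 and 1019 in the Gpr174-/Y libraries. Scaled by TMM these were 67.1, 62.5 and 56.6 CPM against 46.6, 46.6 and 47.4 CPM. Every mutant library was then below every WT library, with hardly any spread among the mutants. The log2 fold change was -0.41 ± 0.07 (SE), 95% confidence interval -0.57 to -0.24, or 0.755-fold, with an adjusted p of 0.00332. With libraries scaled to their total counts it was -0.13 with an adjusted p of 0.0731, and in TPM the group means were 55.6 and 55.2. The decrease was thus one relative to the middle of all genes, and the call was lost when libraries were compared by their totals.

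Abhd12, the main lipase that hydrolyses LysoPS, was higher in Gpr174-/Y muscle. Its counts were 1019, 1161 and 1383 in the WT and 1947, 1925 and 2106 in the Gpr174-/Y libraries, and its scaled levels 63.4, 69.1 and 77.7 CPM against 93.0, 90.7 and 98.0 CPM. No WT library reached the level of a mutant library in counts, CPM or TPM. The log2 fold change was 0.42 ± 0.08 (SE), 95% confidence interval 0.23 to 0.61, or 1.34-fold, with an adjusted p of 0.00529, and with total counts it was 0.69 with an adjusted p of 0.002.

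The RNA of the degrading lipase relative to the forming one was taken as the ratio of Abhd12 to Abhd16a counts within a library. Like the P2ry10b ratio, this measure was chosen after the values had been seen. It was 0.944, 1.11 and 1.37 in WT and 2.0, 1.95 and 2.07 in Gpr174-/Y muscle. The ratio was 1.76 times higher in the mutants, without overlap and with a tight spread among them. The two-sided exact permutation p was 0.1, again the smallest that the design allows. Abhd12 was already higher and Abhd16a lower in CPM without overlap, so the separation and this p were fixed beforehand. From TPM, in which the Abhd16a means were 55.6 in WT and 55.2 in Gpr174-/Y muscle, the ratio was 1.73 times higher. These are RNA levels, and neither lipase activity nor the amount of LysoPS is part of these data.

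**Figure D2:**
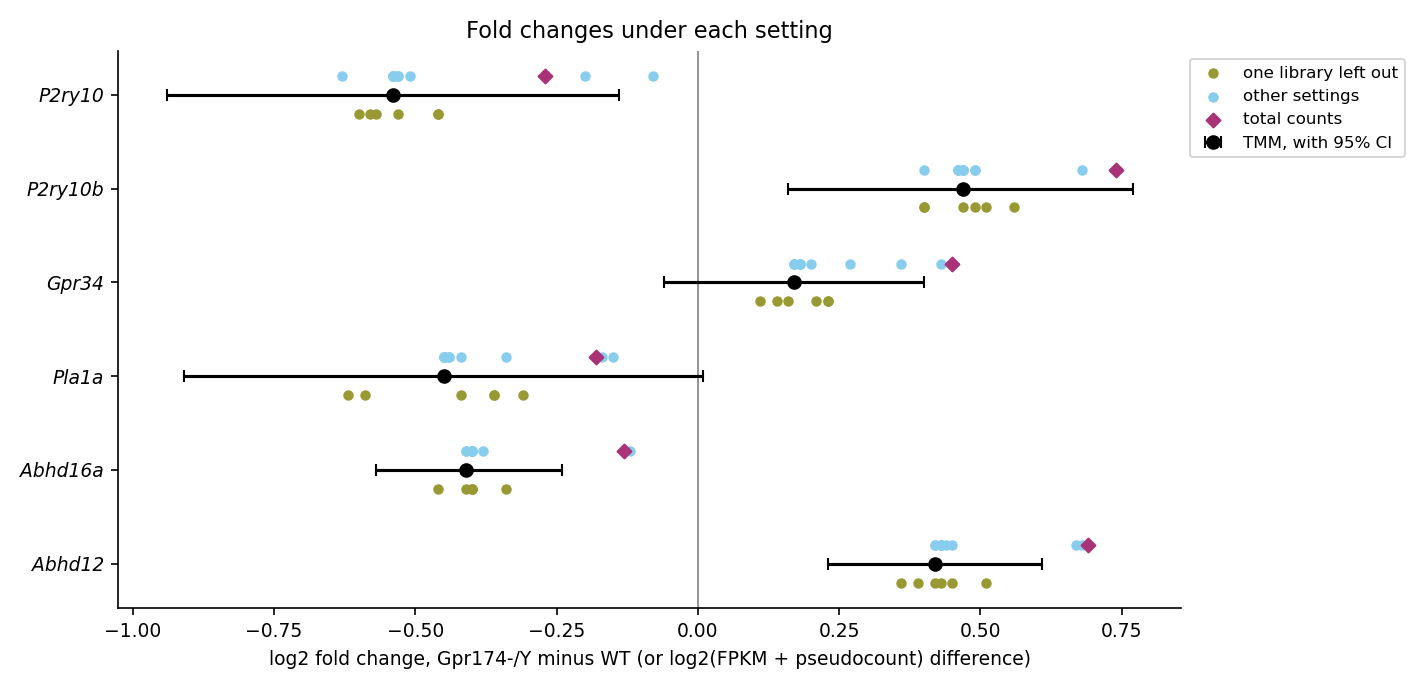
Log2 fold change (Gpr174-/Y minus WT) of 5 lysophosphatidylserine genes and P2ry10b with its 95% confidence interval under TMM scaling (black), with 1 library left out (olive), with libraries scaled to total counts (purple) and under the remaining settings, 2 of them on log2(FPKM + pseudocount) (light blue). No point of any gene lies on the other side of 0 from its black point, while total counts move each gene to the right.

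The muscle libraries also differed in the markers of the cells that could carry these genes. In a bulk sample, fewer cells of a type and less RNA per cell cannot be told apart. Markers of mature muscle fibres summed to 128000 to 182000 CPM in WT and 56200 to 62700 CPM in Gpr174-/Y muscle, with 12 of 12 markers lower. Macrophage markers summed to 1570 to 2460 CPM against 3630 to 3700 CPM, with 8 of 9 higher, and endothelial markers to 877 to 1050 CPM against 545 to 623 CPM, with 6 of 6 lower. Mast cell markers summed to 14.9 to 30.1 CPM against 8.86 to 12.4 CPM, with 4 of 4 tested lower. Fibroblast markers summed to 6100 to 9150 CPM against 11700 to 13300 CPM, although 3 of 4 were lower and Col1a1 alone was higher. Regenerating fibre markers, at 2290 to 4730 CPM against 4550 to 5380 CPM, overlapped, with 3 of 5 higher. The neutrophil sum, at 16 to 24.6 CPM against 28.6 to 31.5 CPM, rested on a single tested marker, which was higher, with Ly6g at no more than 3 counts in every library.

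Lymphocyte markers summed to low levels. T cell markers summed to 32.7 to 37.8 CPM in WT and 34.7 to 39.0 CPM in Gpr174-/Y muscle and overlapped, with 1 of 10 higher and 2 lower. Markers of regulatory T cells (Tregs) summed to 10.2 to 12.3 CPM against 7.32 to 8.27 CPM, although their TPM sum was 1.14 times the WT sum with overlap. Of these markers, 1 of 3 tested was lower, Ikzf2, the largest part of the sum, at a mean of 6.34 CPM in WT and 3.11 CPM in Gpr174-/Y muscle. Il2ra (1.67 and 1.54 CPM) and Tnfrsf18 (2.77 and 2.73 CPM) were not called. Ctla4 had no more than 3 counts in any library, and Foxp3, the defining marker, had 8, 9 and 13 against 6, 10 and 7 counts. B cell markers summed to 12.3 to 15.1 CPM against 16.7 to 20.3 CPM, with 1 of 3 tested higher.

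Set against these sums, Gpr34 and P2ry10 were lower in the mutants than in WT muscle. Gpr34 was 4.81, 4.67 and 3.58 CPM per 1000 CPM of macrophage markers in WT and 2.69, 2.44 and 2.74 in Gpr174-/Y muscle, 0.603 times the WT mean without overlap. P2ry10 was 43.6, 36.7 and 41.4 CPM per 1000 CPM of T cell markers in WT and 30.4, 27.6 and 22.7 in the mutants, 0.663 times the WT mean without overlap. Cd4 held the largest part of the T cell sum, at a mean of 14.4 CPM in WT and 19.4 CPM in Gpr174-/Y muscle. Cd3d, Cd3e and Cd3g each had a mean of at most 1.14 CPM in either group, and P2ry10 was not set against them alone. Per 1000 CPM of T cell markers P2ry10b was 83.3, 86.7 and 90.2 against 135, 110 and 103, 1.34 times the WT mean. Per B cell markers, however, P2ry10b was 221, 248 and 226 against 281, 205 and 203, and the groups overlapped. Per 1000 CPM of macrophage markers P2ry10b was 1.73, 1.6 and 1.39 against 1.29, 1.14 and 1.08, 0.744 times the WT mean without overlap, so its direction depended on the markers it was set against. Abhd12 per 1000 CPM of macrophage markers was 40.1, 35.7 and 31.5 in WT and 25.7, 24.8 and 26.6 in the mutants. The two-sided exact permutation p was 0.1 for each of these that did not overlap, the smallest possible. The macrophage sum was 1.84 times the WT sum without overlap, and the T cell sum 1.05 times with overlap. These values thus largely restate the differences given above and are no further test of them. The part of cell composition in the members' changes was not tested.

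**Figure D3:**
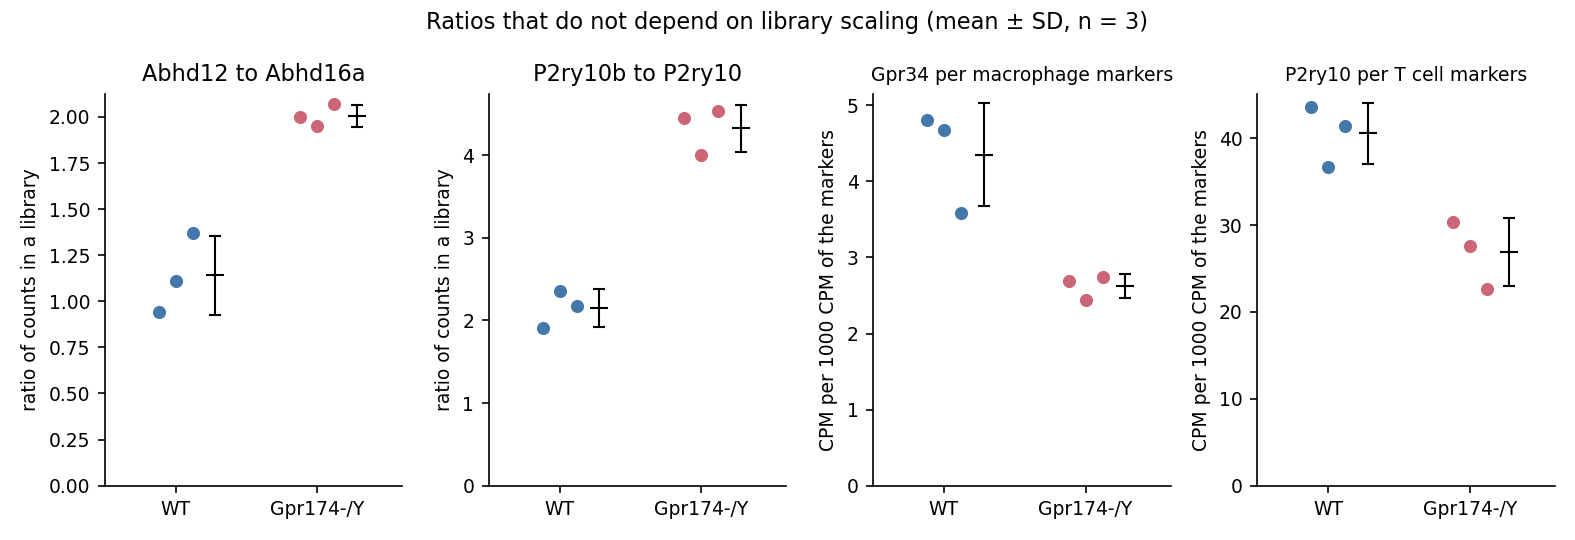
Ratios within a library, which need no scaling between libraries, on linear axes from 0, with 1 point per mouse and the mean ± SD of 3 mice. The count ratios of Abhd12 to Abhd16a and of P2ry10b to P2ry10 are higher in Gpr174-/Y muscle, and Gpr34 per macrophage markers and P2ry10 per T cell markers are lower, each without overlap. Cd4 is the largest part of the T cell sum.

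The table lists transcripts, so that the share of each transcript in a gene's estimated counts could be given for each library. For Abhd12, the RefSeq transcript NM_024465.3 held 52.1%, 51.3% and 51.8% of the counts in WT and 61.9%, 58.3% and 59.4% in Gpr174-/Y muscle. The mean share was 8.14 percentage points higher in the mutants, without overlap, with a two-sided exact permutation p of 0.1. The minor transcript XM_006500367.4 had a mean share of 1.31% in WT and 0.307% in mutant muscle, also without overlap (exact p = 0.1), while XM_006500365.4 (24.2% and 18.3%) and NM_001356550.1 (22.7% and 21.5%) overlapped between the groups.

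Pla1a was spread over transcripts in a way that differed among the mutants themselves. XM_006522771.1 held 92.9%, 95.2% and 78.8% in WT and 77.9%, 44.9% and 61.1% in Gpr174-/Y muscle, and XM_006522772.1 held 0%, 0% and 15.6% against 16.2%, 40.3% and 23.9%. WT replicate 3 and Gpr174-/Y replicate 1 were within a percentage point of each other on both, so the groups were only just separate (exact p = 0.1 for each). NM_134102.4 held 5.85% in WT and 9.82% in mutant muscle and overlapped. In WT replicate 3 and Gpr174-/Y replicates 1 to 3, XM_006522772.1 was given 33.13, 33.04, 66.09 and 33.04 estimated counts. In the same libraries NM_134102.4 was given 12.09, 12.11, 24.21 and 12.11, in step with it. The Pla1a shares are estimates of the counting model and give no firm measure of isoform use.

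For Abhd16a nearly all counts lay on NM_178592.3 in both groups (96.2% and 96.7%, exact p = 0.7), and for Gpr34 on NM_011823.4, with 90.7% to 96.9% in each library. The receptors with few counts switched transcript from library to library. All P2ry10b counts of WT replicates 1 and 2 were placed on NM_175442.4, whereas in WT replicate 3 it was given 0% and NM_001122596.1 99.9%. P2ry10 counts were placed wholly on NM_001357810.1 in Gpr174-/Y replicate 3, against at most 20.4% in any other library. These shares are estimates of a model for overlapping transcripts, and at such counts they give no measure of isoform use.

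**Figure D4:**
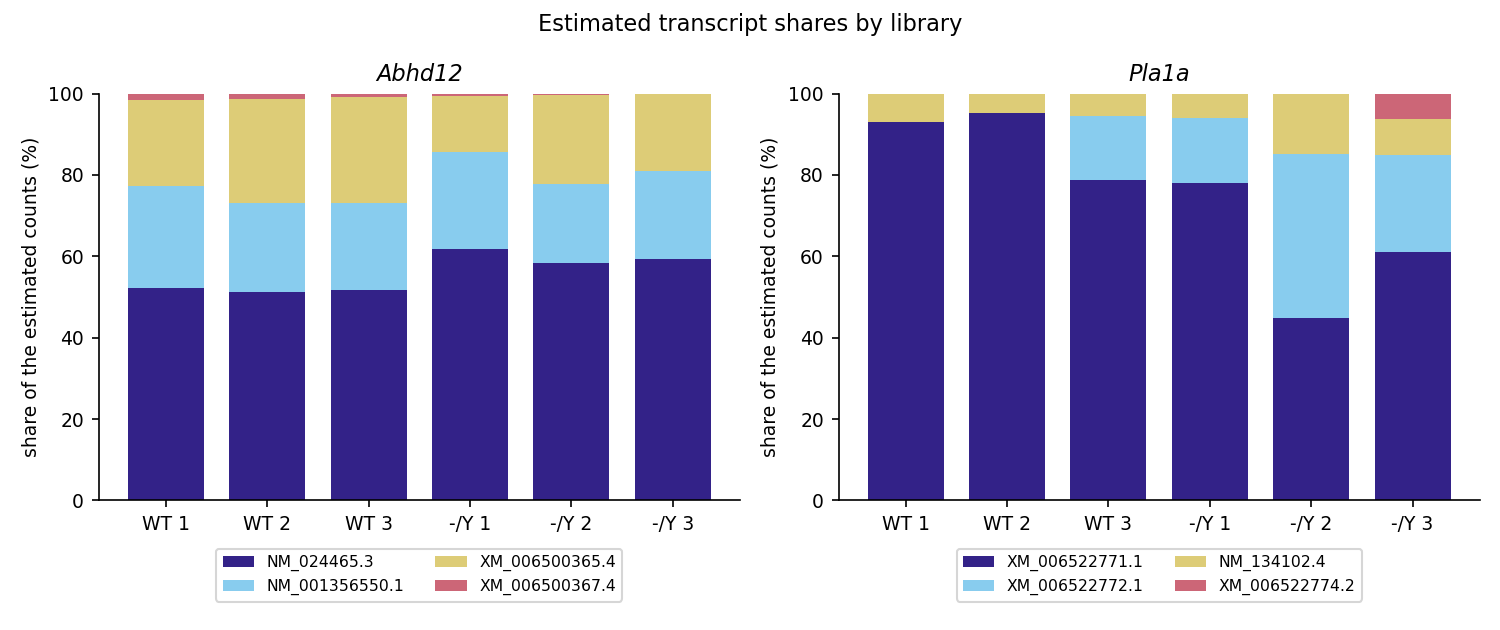
Share of the estimated counts (%) of Abhd12 and Pla1a placed on each RefSeq transcript in the 3 WT and 3 Gpr174-/Y libraries, stacked to the whole. The largest Abhd12 share is higher in all mutants, 58.3% to 61.9% against 51.3% to 52.1%, and the largest Pla1a share is 44.9% to 77.9% in mutants against 78.8% to 95.2%.

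Phosphatidylserine is the precursor of LysoPS, and the genes that make it or remodel lysophospholipids were described as a group. Of 22 tested, 8 were higher and 2 lower in Gpr174-/Y muscle (45.5% called), with a median log2 fold change of 0.11, and the others did not pass the test. With total counts 14 were higher and 0 lower, with a median of 0.38. Over all genes tested 54.6% were called with TMM, and the median was 0 with TMM and 0.28 with total counts. These all-gene values are the yardstick for this group and for those below. The largest increases were those of Lpcat2 and Lpcat1, acyltransferases that turn lysophosphatidylcholine back into phosphatidylcholine. Lpcat2 had 13.7, 17.1 and 23.9 CPM in WT and 33.9, 34.6 and 33.0 CPM in mutant muscle, a log2 fold change of 0.89 ± 0.18 (SE), and Lpcat1 a log2 fold change of 0.77 ± 0.10. Lypla1, a lysophospholipase and thioesterase, fell by 0.47 on the log2 scale (adjusted p = 0.00537), while with total counts its log2 fold change was -0.19 and it was not called (adjusted p = 0.0514). Enpp2, which encodes autotaxin, had 20.3, 17.2 and 12.5 CPM against 8.94, 11.4 and 13 CPM, and its groups overlapped at an adjusted p of 0.0455. This call was lost with total counts (log2 fold change -0.30, adjusted p = 0.204), with limma voom (adjusted p = 0.0545) and without any of 5 libraries, all but WT replicate 3. The phosphatidylserine synthases Ptdss1 and Ptdss2, named after their values were seen, had log2 fold changes of -0.08 and -0.02 with TMM and of 0.19 and 0.25 with total counts, and were called in neither.

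Phosphatidylserine must be turned to the outer face of a membrane before a secreted lipase can reach it. Of 16 scramblase, flippase and chaperone genes tested, 8 were higher and 3 lower (68.8% called), with a median log2 fold change of 0.16, and with total counts 11 were higher and 1 lower. The flippase gene Atp8b4 rose by 0.97 ± 0.20 (SE) on the log2 scale, from 5.55 to 10.9 CPM on average, and Tmem30b, which encodes a flippase subunit, by 0.85 ± 0.20. The flippase genes Atp8a2 and Atp8a1 fell by 1.17 and 0.50 on the log2 scale (adjusted p = 0.00988 and 0.0238). For Atp8a1 the log2 fold change with total counts was -0.22 and it was not called (adjusted p = 0.15), nor was it without WT replicate 2 (adjusted p = 0.0818) or without any of the mutant replicates (adjusted p = 0.0691 to 0.0734).

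Receptors and bridging proteins for exposed phosphatidylserine, carried largely by phagocytes, gave the highest median of the groups. Of 13 tested, 10 were higher and 1 lower (84.6% called), with a median log2 fold change of 0.58, where the macrophage markers had a median of 0.77. Cd300lf, a myeloid receptor for phosphatidylserine and other lipids, had 1.24, 3.39 and 5.84 CPM in WT and 9.70, 10.3 and 11.5 CPM in Gpr174-/Y muscle, a log2 fold change of 1.57 ± 0.40 (SE). Its value ran from 1.19 to 2.17 with 1 library left out, and the call was lost without WT replicate 2 (adjusted p = 0.0576) or Gpr174-/Y replicate 3 (adjusted p = 0.0523). Havcr2, which encodes TIM-3, rose by 1.28 ± 0.25 on the log2 scale. Stab2, a scavenger receptor of sinusoidal endothelium, fell by 0.78 (adjusted p = 0.00571), beside endothelial markers that were all lower.

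Among the other lysophospholipid receptors, 5 of 13 tested were higher and 3 lower (61.5% called), with a median log2 fold change of 0.20, and P2ry10b was among the 5. Gpr132, a receptor for oxidised fatty acids and lysophospholipids on macrophages, rose by 0.67 ± 0.18 (SE) on the log2 scale, and the lysophosphatidic acid receptor gene Lpar5 by 0.58 ± 0.10. The call of Gpr132 was lost without WT replicate 2 (adjusted p = 0.0519), Gpr174-/Y replicate 2 (0.0547) or Gpr174-/Y replicate 3 (0.0594). S1pr1, the sphingosine 1-phosphate receptor of endothelium and lymphocytes, had 88.1, 87.9 and 88.3 CPM in WT and 59.1, 56.7 and 57.3 CPM in Gpr174-/Y muscle. It fell by 0.61 ± 0.04 (SE) on the log2 scale with hardly any spread within either group, and S1pr4, of leukocytes, fell by 0.83 ± 0.18.

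The wider P2Y-like family, to which the LysoPS receptors belong by sequence, had 5 of 11 tested genes higher and 2 lower (63.6% called), with a median log2 fold change of 0.51. Gpr183, the oxysterol receptor that guides lymphocytes and myeloid cells, had 1.99, 1.73 and 2.75 CPM in WT and 6.93, 6.64 and 6.00 CPM in Gpr174-/Y muscle, a log2 fold change of 1.59 ± 0.17 (SE). P2ry12, an ADP receptor, rose by 0.99 ± 0.19. The nucleotide receptor P2ry2 had 43.9, 38.4 and 30.8 CPM in WT and 12, 11.4 and 12.3 CPM in mutant muscle, and fell by 1.66 ± 0.13 on the log2 scale. P2ry1, also an ADP receptor, fell by 0.81 ± 0.15. Changes of more than 1 on the log2 scale with an adjusted p under 0.05, found for 8.29% of all genes tested, thus occurred in this family, while among the 6 LysoPS genes Gpr174 alone passed both thresholds, in the unfiltered fit.

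Signalling below GPR174 runs through Gs, adenylyl cyclase, cAMP and protein kinase A. Of 33 genes of this pathway and of the G12/13 arm tested, 10 were higher and 14 lower (72.7% called), with a median log2 fold change of 0. With total counts 18 were higher and 8 lower, with a median of 0.28. Both medians were those of all genes tested, of which 50.7% were higher and 14% lower with total counts. The group thus moved with the scaling as all genes did. With TMM, 54.6% of all genes tested were called. Adcy7, the adenylyl cyclase of blood cells, rose by 0.91 ± 0.17 (SE) on the log2 scale, from 63.6 to 120 CPM on average, and Prkar2b, a regulatory subunit of protein kinase A, by 0.89 ± 0.17. The cAMP phosphodiesterase genes Pde4c and Pde4a fell by 1.66 ± 0.23 and 1.02 ± 0.21 on the log2 scale. Gnas, which encodes the Gs alpha subunit and was named after its values were seen, fell by 0.33 (adjusted p = 0.0163), but with total counts its log2 fold change was -0.06 and it was not called (adjusted p = 0.575).

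The chemokine CCL21 has been reported as another ligand of GPR174. None of the 3 tested genes of the group of CCL21, CCL19 and their receptor was called, with a median log2 fold change of -0.57. Ccl21a had 280, 209 and 117 counts in WT and 106, 164 and 248 in Gpr174-/Y muscle, with an adjusted p of 0.262, and the groups overlapped. The near-identical copies of Ccl21 share reads, so their counts are uncertain, and Ccl19 had 4 counts in a single WT library and 0 in the others.

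**Figure D5:**
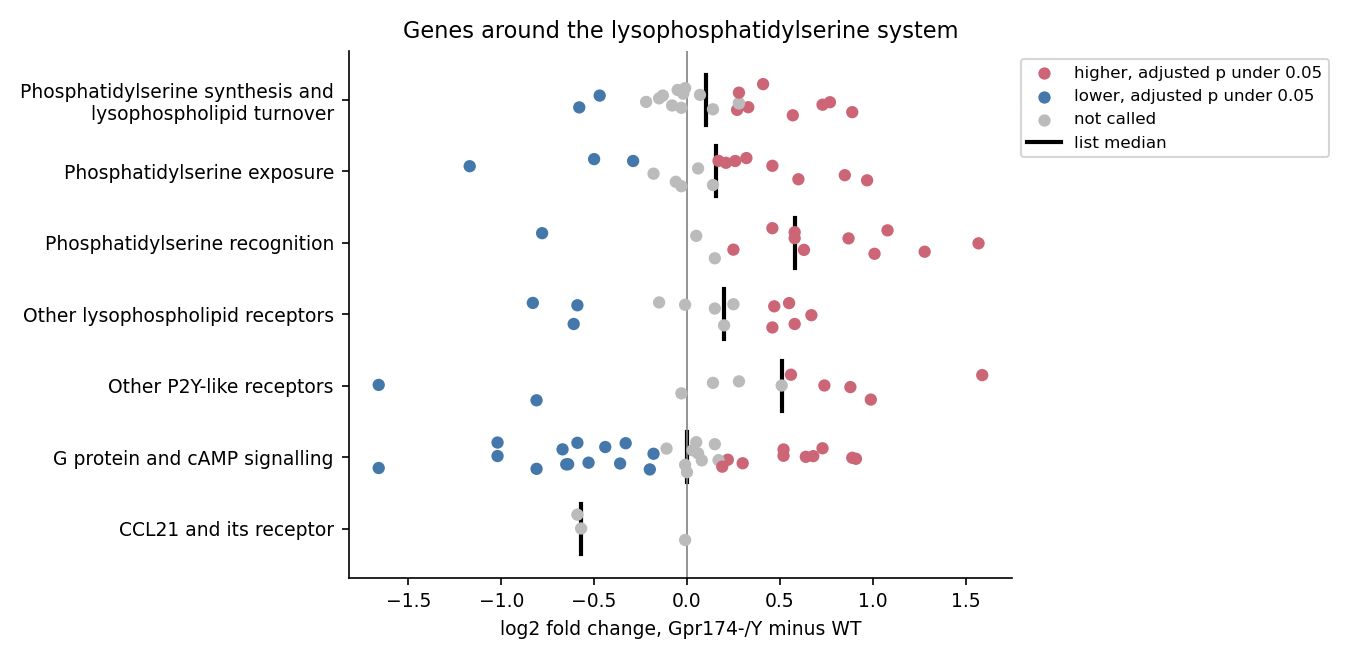
Log2 fold change (Gpr174-/Y minus WT, linear axis) of each tested gene in 7 groups around the lysophosphatidylserine system, red where higher and blue where lower at an adjusted p under 0.05, grey where not called, with the group median as a bar. Phosphatidylserine recognition has the highest median, 0.58, and the G protein and cAMP group spreads to either side of a median of 0.

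Genes whose level over the 6 libraries ran most like that of each member were sought among 13636 genes, as a description in which the difference between genotypes is shared by all. Abhd12 ran with Atp6ap2 (Pearson r = 0.999), a subunit of the lysosomal proton pump, Rhno1 and Anxa9 (both 0.998). Abhd16a ran with the water channel gene Aqp1 and with Arhgap26, each at a Pearson r that rounds to 1. P2ry10 ran with Trmt10c (0.999), Tsr3 and Timm10 (both 0.996), and P2ry10b with Dlg4, Rfc5 and Rnf26 (each 0.998). For Gpr34 the nearest were Zfp273 (0.990), Aste1 and Taf6l (both 0.973), and for Pla1a they were Guk1 (0.983), Utp3 (0.977) and Radil (0.976). None of these is a LysoPS gene, and with 6 libraries many genes reach such values.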

How the data were processed

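Total RNA of ischemic gastrocnemius was sequenced on the BGISEQ-500 platform according to the methods, whereas the labels name an Illumina kit. The submitters' processing notes list HISAT2 2.0.4, Bowtie2 2.2.5, RSEM 1.2.12 and GRCm39, and strand use is not given in the sources used here. In the single table of 58843 RefSeq transcripts that the authors deposited, expected counts are estimated reads, not normalized. The deposited table also holds FPKM and TPM, which the authors scaled for length and depth. The authors' group means were left out.

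Samples were grouped by the genotype in the labels. Expected counts were summed per Entrez gene and rounded, and 99.7% of the genes received a symbol. Libraries were compared with edgeR 4.0.16 in R 4.3.3 (TMM, filterByExpr, robust quasi-likelihood F-test, Benjamini-Hochberg adjustment over all genes, adjusted p of 0.05, in a second call also an absolute log2 fold change of 1). CPM are counts scaled to the TMM library size. SE are the log2 fold change over the root of F. Shares, ratios and marker sums were compared with two-sided exact permutation tests over samples, shares for transcripts with a mean of at least 10 counts. Alternatives were DESeq2 1.42.0, limma 3.58.1 (voom, and log2(FPKM + 1) and log2(FPKM + 0.1)), other scalings and filters, a replicate block and leaving out each library. The edgeR script was tested on simulated data. The study's own test, DEGseq, was not used.

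The members and gene lists were chosen with earlier results of these data known. Named genes were the members, P2ry10b, from each list the 2 largest called increases and decreases (mean CPM 1 or more), and the 3 genes most correlated with each member, of which 1 is not reported here. The methods give 3 samples per group, and the labels number them only as replicates. The SE and adjusted p take them as independent animals. Counting error only, and in the mutant libraries only, is covered by the floor of 3 counts.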

Additional observations from a re-analysis of the deposited data

How the results depend on the processing

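Over these alternatives, the log2 fold changes of the 6 genes and P2ry10b kept their direction. With libraries scaled to total counts, Gpr34 became significant (log2 fold change 0.45, adjusted p = 0.0129) and Abhd16a did not (-0.13, adjusted p = 0.0731). The values were 0.36 for Gpr34 and -0.12 for Abhd16a on log2(FPKM + 1), and 0.43 and -0.13 on log2(FPKM + 0.1), with the same calls. These units also carry no TMM scaling. On log2(FPKM + 1), Gpr174 was at -0.07 (adjusted p = 0.0574), since this scale understates changes of low genes, and 646 genes passed both thresholds against 1193. With limma voom P2ry10 was significant (-0.54, adjusted p = 0.0306), where its adjusted p ran from 0.0306 to 0.329 over the alternatives. The adjusted p ran from 1.13e-04 to 0.0887 for Abhd16a, from 2.03e-04 to 0.0894 for Abhd12, from 0.0129 to 0.381 for Gpr34 and from 0.0219 to 0.47 for Pla1a.

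Replicate 2 lay between replicates 1 and 3 in 86.1% of 3675 abundant genes in WT and 77.1% in Gpr174-/Y muscle. Exchangeable libraries would each lie in the middle about equally often. Whether the 3 libraries of a group are independent was not tested. A fit with replicates 1 and 3 alone was added after the data were seen. It called 0 of 14447 genes in edgeR (0 past both thresholds), with 5026 at an unadjusted p under 0.05. The count was 0 in each gene group, against 8, 4, 9, 6, 5 and 17 at an unadjusted p under 0.05 for phosphatidylserine synthesis, exposure and recognition, lysophospholipid receptors, P2Y-like receptors and G protein and cAMP signalling. There Abhd16a was at -0.40 (adjusted p = 0.0887), Abhd12 at 0.44 (0.0894) and Gpr174 at -3.69 (0.0877). This fit has fewer samples.

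Leaving out each library in turn gave 924 to 1828 genes past both thresholds (highest without WT replicate 3), and 5459 to 9166 called. Calls ranged from 6 to 11 for exposure (7 without Gpr174-/Y replicate 1, 6 without Gpr174-/Y or WT replicate 2), 5 to 9 for lysophospholipid receptors (5 without either replicate 2), 15 to 26 for G protein and cAMP signalling (15 without WT replicate 2) and 0 to 1 for CCL21 (Ccl21c without Gpr174-/Y replicate 3). Log2 fold changes ran from -0.62 to -0.31 for Pla1a, -5.50 to -3.22 for Gpr174, -0.46 to -0.34 for Abhd16a and 0.36 to 0.51 for Abhd12. The ratio of Abhd12 to Abhd16a was 1.62 to 1.95 times higher in the mutants. Marker sums, as mutant over WT, ranged from 1.67 to 2.09 for macrophages, 1.52 to 1.86 for fibroblasts, 1.38 to 1.72 for neutrophils and 1.24 to 1.79 for regenerating fibres.

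With total counts and with TPM, the marker sums, as mutant over WT, were 1.26 and 1.29 for T cells, 0.832 and 1.14 for Tregs, 1.71 and 1.84 for B cells, 2.2 and 2.41 for macrophages, 1.81 and 1.72 for neutrophils, 0.724 and 0.802 for endothelium, 1.98 and 1.86 for fibroblasts, and 1.72 and 2.15 for regenerating fibres, and 0.506 for mature fibres with TPM. The Treg sum thus lay on the other side of 1 with TPM (exact p = 0.4).

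Same-numbered samples are different mice, and their deviations from the group means did not correlate (r = 0.016, -0.029 and -0.008), so the numbers were not taken as pairs. With a replicate block, 6810 genes were called and 1138 passed both thresholds, and P2ry10b (0.47, adjusted p = 0.0627) and Enpp2 (-0.57, adjusted p = 0.119) lost significance. Gpr174 and P2ry10 had at most 28 counts in any library, which limits what can be said of them.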
